A study of Mus musculus with 6 samples.

Results

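The genes of glycolysis and of the hypoxia response were followed in sorted mouse liver cells. The injury studied was ischemia/reperfusion (I/R), that is, a stop of the blood flow and its return. The set held 35 of the 22027 genes in the deposited table: 17 glycolytic enzyme genes, 3 glucose and lactate transporter genes, 2 genes of the PFKFB enzymes, 5 genes of hypoxia-inducible factors (HIFs) and their oxygen sensors, and 8 HIF target genes. Members were chosen by gene symbol. All 35 symbols were found, in 36 rows, because Aldoa carried 2 identifiers, and the row of Aldoa at 0 in every library was set aside.

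RNA-seq was done on 3 I/R libraries, taken on day 3 after the injury, and on 3 Sham libraries. The cells of both groups were labelled as liver lymphatic endothelial cells and came from IL7-GFP reporter mice, which carry a green fluorescent protein reporter. The names of all libraries carry the words GFP plus, so the sorted cells are given as reporter-positive. The labels leave out the sham time point, the age and strain of the mice, any other gating markers and how many animals each library stands for. The p-values therefore cover the variation among these 6 libraries only, which may be technical. The values are counts normalised by the authors to 1 factor per library. Dividing each by the value of 1 count gave back whole counts, with totals of 6297308 to 17086746 in the I/R libraries and 6638130 to 15650152 in the Sham libraries.

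The lymphatic label covers only a part of the RNA, as markers show. Prox1, the lymphatic transcription factor gene, had normalised counts of 2177, 1082 and 1877 in the I/R libraries and 1185, 1669 and 849.6 in the Sham libraries. Clec4f, a Kupffer cell marker gene of resident liver macrophages, had 32857, 46909 and 58478 in the I/R libraries and 54622, 53921 and 49954 in the Sham libraries. Alb, a hepatocyte marker gene, had 26138 to 40775 in the I/R libraries and 28530.5 to 43364.5 in the Sham libraries. Krt19, a marker gene of cholangiocytes, the bile duct cells, had 232.0 to 1193 in I/R and 532.1 to 1066 in Sham libraries. RNA of macrophages, hepatocytes and cholangiocytes was therefore present in every library beside lymphatic RNA. A level given here is that of the whole mixture. In such bulk libraries, fewer cells of a type and less RNA per cell cannot be told apart.

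Glycolysis breaks glucose down to pyruvate in the cytosol, and lactate dehydrogenase turns pyruvate into lactate, which leaves the cell through monocarboxylate transporters. When oxygen falls, prolyl hydroxylases no longer mark the HIF alpha subunits for destruction through the VHL protein, and HIFs then activate genes of glucose uptake, glycolysis and lactate export. Endothelial cells and activated macrophages are both known to rely heavily on glycolysis. HIF alpha subunits are controlled mainly at the protein level, which RNA-seq does not measure.

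No gene of the set passed the test between I/R at day 3 and Sham, and most estimates lay close to 0. Slc16a3, a lactate exporter gene, was higher and Hk3, a hexokinase gene, lower in every I/R library than in any Sham library, without passing. The fit was limma on log2(value + 1), run on 13434 genes whose mean reached 10, and all 35 members were among them. At an adjusted p under 0.05, 0 of 35 members were called, against 4 genes or 0.0298% of all genes tested. Among all genes this count was 22 without Sham library 1 and 0 without any 1 of the other 5 libraries, while 0 members were called in each of these fits. On the recovered counts edgeR also called 0 members, with a background of 0.00744%, and DESeq2 called 0, with a background of 0.252%. At an unadjusted limma p under 0.05, 2 members were found, Slc16a3 higher and Hk3 lower, or 5.71% of the set against 4.44% of all genes tested. The same count was 2 in edgeR, with a background of 3.98%, and 2 in DESeq2, with a background of 3.46%. Among all genes the 4.44% were 397 higher and 199 lower, and 490 higher and 130 lower once library totals were made equal. Without Sham library 1 they were 6 members, or 17.1% of the set against 7.99% of all genes tested, with Slc16a3, Hk1, Egln3 and Ndrg1 higher and Hk3 and Aldoc lower. Leaving out any other single library gave fewer members. Without I/R library 1 there were 1 higher and 0 lower, and without I/R library 2 or 3 there were 1 higher and 1 lower. Without Sham library 2 there were 2 higher and 2 lower, and without Sham library 3 there were 1 higher and 2 lower. The groups did not overlap for 3 of 35 members, or 8.57%, against 9.59% of all genes tested. By direction these were 1 member higher in I/R, with a background of 5.11%, and 2 lower, Hk3 and Slc2a1, with a background of 4.48%. With all 6 libraries these shares lie near the background. Slc16a3 and Hk3 were also without overlap with equal library totals, TMM factors, quantile normalisation and TPM (counts per exon length), while Slc2a1 overlapped under equal totals, quantile normalisation and TPM. Hk1 overlapped as deposited and with TMM factors but not under those 3 scalings, and Aldoc did not overlap under quantile normalisation.

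The intervals limit how far most members can have differed. Of the 35 log2 fold changes, 21 were positive and 14 negative, and their median was 0.042, beside 0.017 over all genes tested. For 31 members, or 88.6%, the log2 fold change lay within 0.5 of 0, as it did for 76.7% of all genes tested. The 95% interval of the difference lay wholly between -1 and 1, that is, inside a doubling or halving, for 26 members, or 74.3%, beside 53.1% of all genes tested. These shares were not matched for abundance, as 34 of 35 members but 10837 of 13434 genes tested had a mean of at least 50. The 9 members whose interval went past these bounds were Slc16a3, Slc16a1, Pfkm, Aldoc, Ldhb, Egln3, Ankrd37, Ndrg1 and P4ha2. All limma adjusted p of the set were between 0.939 and 0.999.

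**Figure D1:**
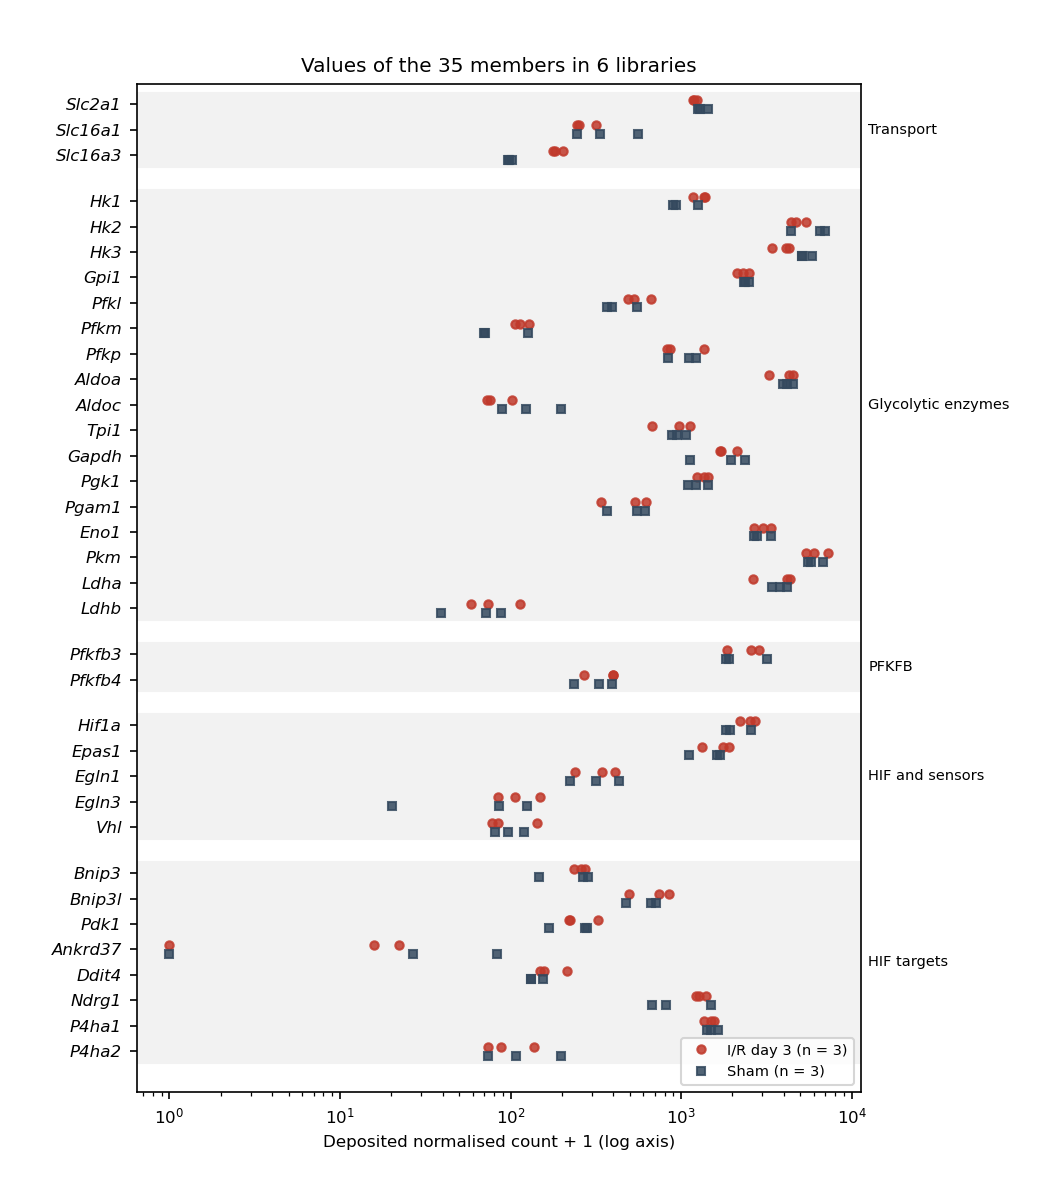
Deposited normalised count + 1 of each member (log axis) in the 3 I/R libraries (circles, upper row of each gene) and the 3 Sham libraries (squares, lower row), ordered by role. The groups overlap for all members except Slc16a3, where the I/R libraries lie to the right, and Hk3 and Slc2a1, where they lie to the left.

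**Figure D2:**
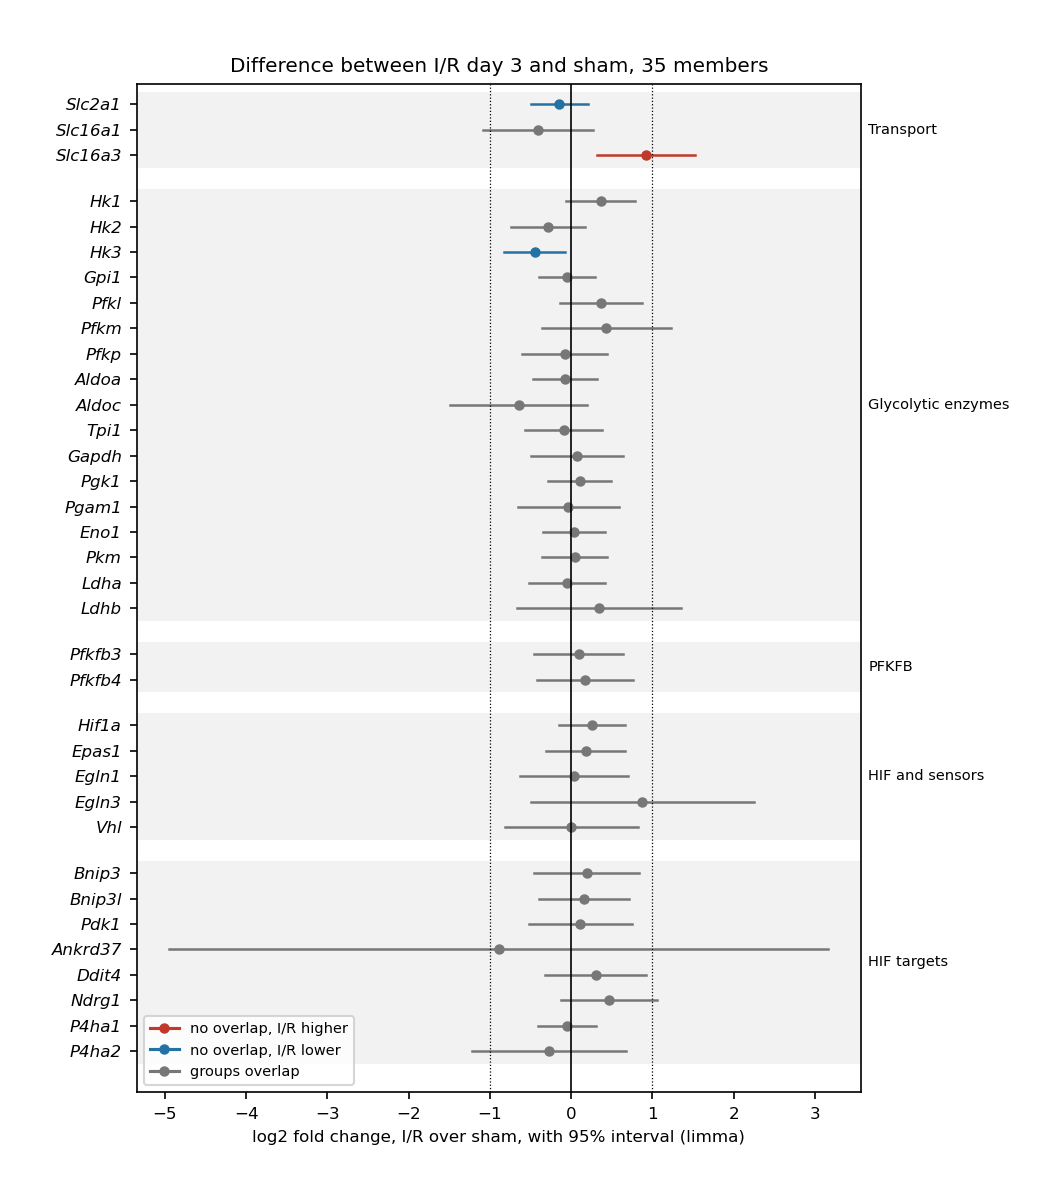
Log2 fold change of I/R over Sham with its 95% limma interval for each of the 35 members, and dotted lines at -1 and 1. The interval excludes 0 for Slc16a3 (0.92) and Hk3 (-0.45), and it is widest for Ankrd37, which was at 0 in 1 library of each group.

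Of the 35 members, the transporter gene Slc16a3 had the smallest limma p. It encodes MCT4, which carries lactate out of glycolytic cells and is a known HIF target. Its normalised counts were 200.8, 176.6 and 182.2 in the I/R libraries, against 96.1, 97.1 and 100.4 in the Sham libraries. Every I/R library was above every Sham library, and each group was tight, with 187 ± 12.7 in I/R and 97.9 ± 2.22 in Sham (SD, n = 3 each). The log2 fold change was 0.92, with an SE of 0.27 and a 95% interval of 0.32 to 1.53 (limma adjusted p = 0.939), a 1.89-fold higher level in I/R that did not pass. It ranked 95 of 13434 genes by p. With single libraries left out the log2 fold change was 0.87 to 0.96, and under other scalings it was 0.83 to 0.98. In the GENCODE M21 annotation of GRCm38 the Slc16a3 gene spans 120948480 to 120960868 of chromosome 11, plus strand.

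Sums of cell type markers were set beside Slc16a3. The summed value of 8 recruited monocyte markers, which include Ccr2, Chil3 and Lyz2, was 43827 to 50224 in the I/R libraries and 22776 to 30184 in the Sham libraries, without overlap, and 6 of the 8 had the higher mean in I/R. Lyz2 made up most of this sum in every library, and Ly6c2 and Plac8 had the lower mean in I/R. Of the lipid-associated macrophage markers 7 of 7 had the higher mean in I/R, with sums of 13512 to 23530 in I/R and 13570 to 16204 in Sham libraries. Spp1, also listed as a cholangiocyte marker, was the largest part of this sum in every library. Taken singly, Gpnmb, Trem2, Cd9 and Fabp5 did not overlap between the groups, while Spp1, Lgals3 and Cd63 did. The 10 lymphatic markers summed to 34855 to 52616 in I/R and 14515 to 38440 in Sham libraries, and 9 of 10 had the higher mean in I/R. Singly, Pdpn and Ccl21a did not overlap, while the other lymphatic markers did. Of 10 pan-endothelial markers 8 had the higher mean in I/R, with sums of 18065 to 27604 in I/R and 16110 to 23881 in Sham libraries. Among these Tek, Cldn5 and Emcn did not overlap, while the others did. The lipid-associated macrophage, lymphatic and pan-endothelial sums overlapped between the groups. No gene of the lists above was at 0 in all libraries. Neutrophil markers were scarce, with sums of 382 to 785 in I/R and 173 to 406 in Sham libraries and both Ly6g and Retnlg at 0. The part of these cells in the Slc16a3 values was not tested.

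Slc2a1, which encodes the glucose transporter GLUT1, was slightly lower in I/R. Its normalised counts were 1173, 1233 and 1196 in the I/R libraries, against 1291, 1435 and 1263 in the Sham libraries. The groups did not overlap in these deposited values but the gap was small, and in TPM they did overlap, with 106 to 116 TPM in the I/R libraries and 111 to 135 TPM in the Sham libraries. The estimate on the log2 scale was -0.15 with an SE of 0.16 and a 95% interval of -0.50 to 0.21 (limma adjusted p = 0.985). Slc16a1 encodes MCT1, which moves lactate into or out of cells. It had 318, 250.8 and 242.9 in the I/R libraries, against 560.6, 243.4 and 334.6 in the Sham libraries. Sham library 1 stood high, and the log2 fold change was -0.41 (SE 0.31) with all libraries and -0.087 without that library.

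The makeup of this transporter pair rests in part on the same Slc16a3 values, so it is no separate line of evidence. Levels of different genes were compared as TPM, that is, recovered counts per exon length scaled to 1 total per library. Slc16a3 made up 34.5%, 36.9% and 38.4% of the summed TPM of both genes in the I/R libraries, against 12.5%, 24.9% and 20.0% in the Sham libraries. The groups did not overlap in this share. With the longest annotated transcript as the length, the mean share was 41.5% in I/R and 22.4% in Sham libraries. No test was made on the shares, because the members were chosen with results known.

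The promoters of the 3 members whose deposited values did not overlap between the groups are shown with that of Ldha, which held the most matches to the core of the hypoxia response element. The windows run from 250 bases before to 50 bases from the gene start in RefSeq on GRCm38.p6. This start can differ from that of the GENCODE gene span, and the windows of Slc16a3 and Ldha lie inside those spans. Capitals mark ACGTG or GCGTG on either strand. On the printed strand the other strand's motif reads CACGT or CACGC, and the letters CACGTG count on both strands.
Slc16a3, chr11:120948817-120949116, plus strand: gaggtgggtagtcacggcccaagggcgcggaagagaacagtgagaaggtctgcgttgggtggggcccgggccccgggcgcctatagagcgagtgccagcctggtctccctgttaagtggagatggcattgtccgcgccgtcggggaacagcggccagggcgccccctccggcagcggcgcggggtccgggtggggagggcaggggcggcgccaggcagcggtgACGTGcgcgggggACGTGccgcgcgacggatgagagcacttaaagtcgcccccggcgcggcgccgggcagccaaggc
Hk3, chr13:55021336-55021635, minus strand: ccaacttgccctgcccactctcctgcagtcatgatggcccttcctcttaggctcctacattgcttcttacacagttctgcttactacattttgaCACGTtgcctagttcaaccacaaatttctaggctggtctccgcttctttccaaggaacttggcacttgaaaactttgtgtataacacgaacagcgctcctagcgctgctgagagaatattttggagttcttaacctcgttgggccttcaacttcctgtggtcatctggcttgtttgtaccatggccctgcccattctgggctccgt
Slc2a1, chr4:119108495-119108794, plus strand: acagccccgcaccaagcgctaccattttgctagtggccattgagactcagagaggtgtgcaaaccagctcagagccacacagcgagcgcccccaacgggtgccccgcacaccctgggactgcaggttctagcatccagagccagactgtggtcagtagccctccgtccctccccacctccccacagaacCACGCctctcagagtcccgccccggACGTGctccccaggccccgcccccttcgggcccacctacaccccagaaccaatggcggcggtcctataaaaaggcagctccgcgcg
Ldha, chr7:46845554-46845853, plus strand: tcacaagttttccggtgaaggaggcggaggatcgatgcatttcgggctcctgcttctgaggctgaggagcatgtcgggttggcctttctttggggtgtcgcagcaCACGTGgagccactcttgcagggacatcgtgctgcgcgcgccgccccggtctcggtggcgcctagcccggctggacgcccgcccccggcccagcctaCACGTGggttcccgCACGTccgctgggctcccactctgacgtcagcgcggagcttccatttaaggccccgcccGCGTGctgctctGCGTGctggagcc

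Slc16a3 held 2 matches, at -27 and -14 from the start, Slc2a1 held 2, at -61 and -36, and Hk3 held 1, at -156. Ldha held 7 in this window, and a second RefSeq window of Ldha is not shown. Of the 32 members with a window, 29, or 90.6%, held a match in at least 1 window, beside 46.7% of the 27025 genes with one. Counted by window, it was 37 of 45 member windows, or 82.2%, and 43.8% of all 32851 windows. The set holds known HIF targets by choice, so its higher share is no independent finding. A match is a description and not a shown binding site. Base composition was not matched between these windows. The 29 members with a match had log2 fold changes of -0.89 to 0.92 with a median of 0.042, 17 of them positive and 12 negative. The 3 without, Gpi1, Tpi1 and Vhl, had -0.054, -0.094 and 0.0023. Members with a match thus lay on both sides of 0.

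The hexokinases, which trap glucose in the cell by phosphorylating it, did not all point the same way. Hk3, known mainly from myeloid cells, had normalised counts of 3420.4, 4272 and 4118 in the I/R libraries, against 5845, 5120.5 and 5130.0 in the Sham libraries. Every I/R library was below every Sham library, with 3937 ± 454 in I/R and 5365 ± 416 in Sham (SD, n = 3 each). The log2 fold change was -0.45, with an SE of 0.17 and a 95% interval of -0.82 to -0.078 (limma adjusted p = 0.985), which did not pass. It was -0.51 to -0.35 with single libraries left out. In the GENCODE M21 annotation of GRCm38 the Hk3 gene spans 55005985 to 55021385 of chromosome 13, minus strand.

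Hk1, the hexokinase of most tissues, had 1172, 1379.6 and 1370.2 in the I/R libraries, against 1261, 890.0 and 927.3 in the Sham libraries. Only Sham library 1 reached into the I/R range, and the log2 fold change was 0.36, with an SE of 0.19 and a 95% interval of -0.060 to 0.79 (limma adjusted p = 0.985). Without Sham library 1 it was 0.52. In TPM the groups did not overlap for Hk1, with 47.8 to 50.6 TPM in the I/R libraries and 33.8 to 44.5 TPM in the Sham libraries. Hk2, the inducible hexokinase and a HIF target, had 4425, 4707 and 5422 in the I/R libraries, against 6974, 6554 and 4438 in the Sham libraries. Sham library 3 lay within the I/R range, and the log2 fold change was -0.28 (SE 0.21).

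Hk3 and Hk2 made up most of the RNA of the 3 hexokinase genes in every library. Per exon length, the share of Hk1 was 7.60%, 7.66% and 7.34% in the I/R libraries and 5.09%, 4.02% and 4.84% in the Sham libraries, without overlap. With the longest transcript as the length it was 12.7% in I/R and 8.0% in Sham libraries on average, where the union of annotated Hk1 exons is 8532 bases and its longest transcript 4278 bases. The share of Hk3 was 52.5% ± 2.15 in I/R and 56.8% ± 4.59 in Sham libraries (SD, n = 3 each), and the groups overlapped. With the longest transcript it was 50.7% in I/R and 56.0% in Sham libraries on average, without overlap. Kupffer cell markers, 10 genes in all, summed to 144175, 214567 and 238992 in the I/R libraries and 213089 to 239563 in the Sham libraries. Of the 10 markers 1 had the higher mean in I/R, but only the sum of I/R library 1 lay below the Sham range. The part of Kupffer cells in the Hk3 values was not tested.

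**Figure D3:**
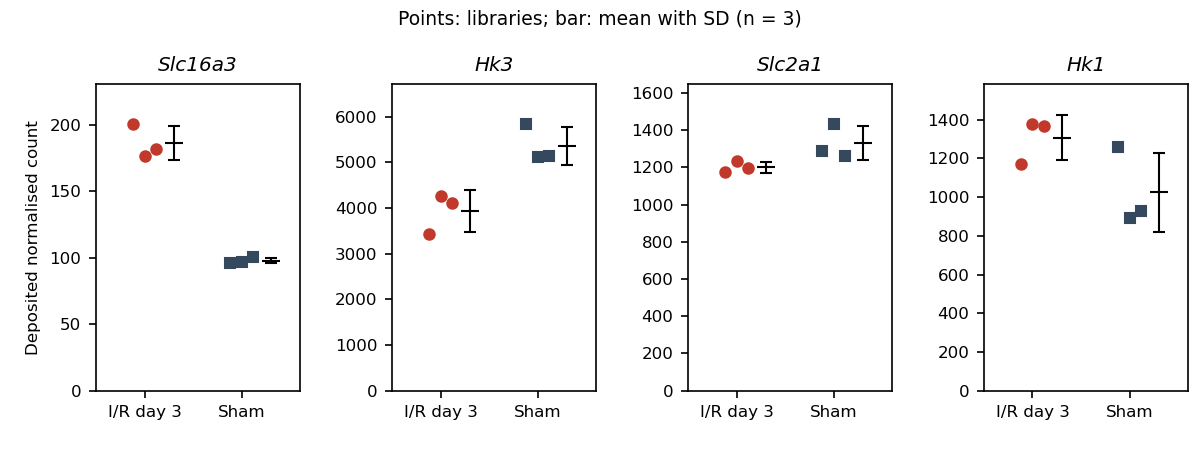
Deposited normalised counts of Slc16a3, Hk3, Slc2a1 and Hk1 in the I/R libraries (circles, left) and the Sham libraries (squares, right), with the mean and SD of each group of 3 beside the points. Slc16a3 is higher in each I/R library, Hk3 and Slc2a1 are lower in each, and Hk1 overlaps through Sham library 1.

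The isomerase, the aldolase Aldoa and the enzymes of the later steps to pyruvate had estimates near 0. Gpi1, the isomerase gene, had normalised counts of 2310.2 ± 191 in I/R and 2394 ± 89.8 in Sham (SD, n = 3 each), with a log2 fold change of -0.054 (SE 0.16). Pgk1, which encodes the kinase of the first step that yields ATP, had 1246, 1428 and 1355 in the I/R libraries, against 1439, 1103 and 1224 in the Sham libraries. Its log2 fold change was 0.10 (SE 0.17). Eno1, the enolase gene, had 0.039 (SE 0.17). Pkm, the pyruvate kinase gene that ranked first in normalised count within the set, had 5392, 7272 and 6052 in the I/R libraries, against 5554, 5749 and 6809 in the Sham libraries, an estimate of 0.042 (SE 0.18). Aldoa, the main aldolase gene outside the liver parenchyma, had 3282, 4531 and 4287 in the I/R libraries, against 3948, 4542 and 4160 in the Sham libraries, an estimate of -0.076 (SE 0.18). Both genes were lowest in I/R library 1. Tpi1, the triose phosphate isomerase gene, had -0.094 (SE 0.22) and Pgam1, the phosphoglycerate mutase gene, -0.034 (SE 0.28). Their adjusted p in limma lay within the range of the whole set, and the groups overlapped for each.

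Gapdh, the glyceraldehyde 3-phosphate dehydrogenase gene, often serves as a reference gene. Here it varied more among Sham libraries than between the groups, with 1697, 2112 and 1710.4 in the I/R libraries, against 1134, 1960.3 and 2367 in the Sham libraries. Its log2 fold change was 0.073 (SE 0.26), -0.24 without Sham library 1 and 0.30 without Sham library 3. Other annotated genes, 87 of them and 85 of these pseudogenes, share at least 200 bases with Gapdh at 95% identity or more. Reads could be split among them, so the Gapdh values are uncertain. The same search found 1 to 4 such copies for Gpi1, Tpi1, Pgk1, Pgam1, Eno1, Pkm, Ldha, Ldhb, Bnip3 and Bnip3l, and none for the other 24 members. For Eno1 they include Eno1b, which the table counts separately.

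Ldha, which encodes the lactate dehydrogenase subunit that favours lactate formation, had 2650.5, 4360 and 4152 in the I/R libraries, against 4159, 3774 and 3401 in the Sham libraries. I/R library 1 was the lowest of all, and the log2 fold change was -0.051 (SE 0.21), or 0.18 without that library. Ldhb, which encodes the subunit common in heart, was rare, with 112.6, 73.1 and 57.6 in the I/R libraries and 86.4, 37.9 and 70.5 in the Sham libraries. Ldha made up 91.8% to 97.2% of the summed TPM of both genes in I/R and 95.8% to 97.9% in Sham libraries. The difference seen in the lactate exporter gene Slc16a3 thus stood beside no separation of the groups in lactate dehydrogenase RNA.

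The phosphofructokinases catalyse the step that commits sugar to glycolysis, and 3 genes encode their liver, muscle and platelet forms. Pfkl had 486.9, 526.6 and 661.0 in the I/R libraries, against 365.0, 550.8 and 393.1 in the Sham libraries, with a log2 fold change of 0.37 (SE 0.23). Pfkm had 112.6, 127.2 and 105.9 in the I/R libraries, against 70.1, 126.4 and 69.3 in the Sham libraries, with a log2 fold change of 0.43 (SE 0.36). For both genes Sham library 2 overlapped the I/R libraries, and the other Sham libraries were lower. Pfkp had 1359, 826.8 and 861.1 in the I/R libraries, against 1115, 1221 and 836.5 in the Sham libraries, with a log2 fold change of -0.078 (SE 0.24). I/R library 1 was the highest for this gene, and without it the log2 fold change was -0.31. Per exon length Pfkl made up 43.3% ± 7.89 in I/R and 38.3% ± 3.57 in Sham libraries (SD, n = 3 each). Pfkp made up 38.7% ± 8.69 in I/R and 46.5% ± 5.13 in Sham libraries (SD, n = 3 each), and which of these forms led differed between libraries.

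Aldoc, an aldolase gene best known from brain, was low in all libraries. It had 100.4, 71.8 and 74.7 in the I/R libraries, against 88.0, 121.7 and 196.0 in the Sham libraries. Sham library 3 stood high, the groups overlapped, and the log2 fold change was -0.65 (SE 0.38), or -0.34 without that library. The 10 hepatocyte markers, among them Alb, summed to 52928 to 69294 in I/R and 46238 to 79240 in Sham libraries. The share of the members' RNA that came from hepatocytes was not tested.

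**Figure D4:**
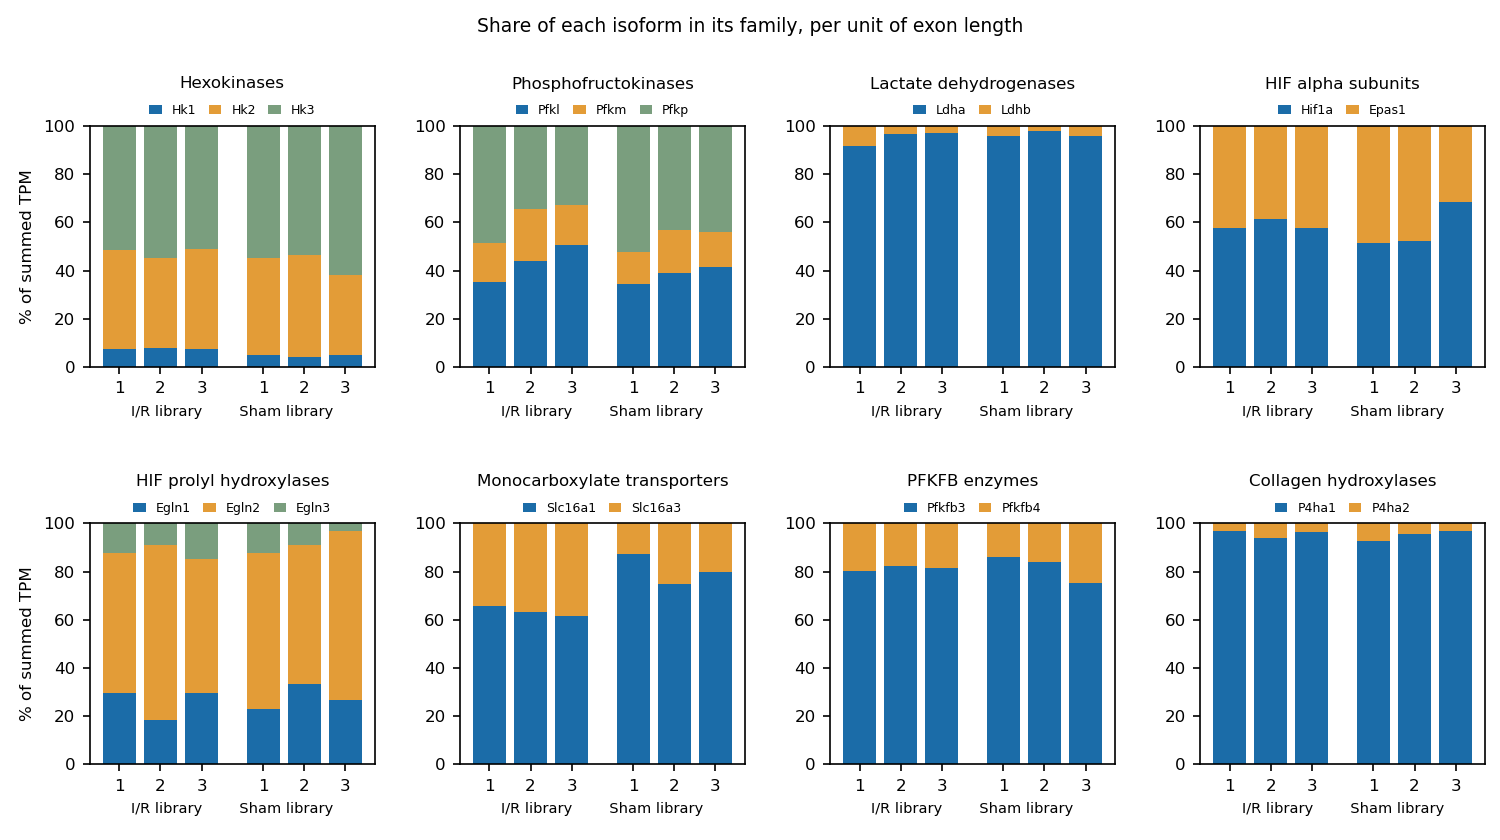
Share of each gene in the summed TPM of its family, in percent, in the 3 I/R libraries (left bars) and the 3 Sham libraries (right bars). Hk1 and Slc16a3 take a larger share, and Slc16a1 a smaller one, in every I/R library than in any Sham library, and the other shares drawn overlap between the groups.

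The PFKFB enzymes make or remove fructose 2,6-bisphosphate, the main activator of phosphofructokinase. Pfkfb3, the form linked to vessel sprouting, had 2559, 2866 and 1849 in the I/R libraries, against 3205, 1919.7 and 1827 in the Sham libraries. Each group held 1 or 2 high libraries, and the log2 fold change was 0.090 (SE 0.25). Pfkfb4 had 400.2, 397.6 and 268.6 in the I/R libraries, against 329.2, 233.5 and 390.8 in the Sham libraries, with a log2 fold change of 0.17 (SE 0.27). Pfkfb3 made up 80.5% to 82.3% of the summed TPM of both in I/R and 75.1% to 86.3% in Sham libraries.

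The HIF alpha genes were abundant in both groups. Hif1a, which encodes HIF-1 alpha, had 2542, 2225 and 2720.2 in the I/R libraries, against 1830.0, 1938 and 2560 in the Sham libraries. Sham library 3 lay within the I/R range and the other Sham libraries below it, and the log2 fold change was 0.25, with an SE of 0.18 and a 95% interval of -0.15 to 0.66 (limma adjusted p = 0.985). Epas1, which encodes HIF-2 alpha and is typical of endothelium, had 1759, 1322 and 1903 in the I/R libraries, against 1629, 1688 and 1111 in the Sham libraries. Its log2 fold change was 0.18 (SE 0.22) and -0.014 without Sham library 3. Hif1a made up 57.5% to 61.5% of the summed TPM of both in I/R and 51.6% to 68.6% in Sham libraries.

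The genes of oxygen sensing showed no separation of the groups. Egln1, which encodes PHD2, the main HIF prolyl hydroxylase, had 340.8, 236.2 and 407.9 in the I/R libraries, against 317.8, 433.0 and 222.3 in the Sham libraries, with a log2 fold change of 0.034 (SE 0.30). Egln3, which encodes PHD3 and is itself a HIF target, had 105.0, 83.4 and 148.7 in the I/R libraries, against 123.8, 85.1 and 19.1 in the Sham libraries. Its log2 fold change of 0.88 (SE 0.62, 95% interval -0.49 to 2.25) rested on the low value of Sham library 3, and without that library it was 0.088. Vhl, whose protein tags hydroxylated HIF alpha, had 141.5, 77.3 and 83.3 in the I/R libraries, against 79.8, 95.1 and 119.5 in the Sham libraries, an estimate of 0.0023 (SE 0.37). Egln2, which encodes PHD1 and is no member, held the largest share of prolyl hydroxylase TPM, with 55.5% to 72.9% in I/R and 57.8% to 70.1% in Sham libraries.

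HIF targets outside glycolysis did not share a direction, with 5 of 8 positive and 3 negative. Ndrg1, a gene induced by hypoxia and differentiation, had 1270.5, 1221 and 1405 in the I/R libraries, against 1499, 819.5 and 674.0 in the Sham libraries. Sham library 1 was above all I/R libraries and the other Sham libraries were below them, so the log2 fold change was 0.46 (SE 0.27, 95% interval -0.13 to 1.06) and 0.80 without Sham library 1. Ddit4, which encodes an mTORC1 inhibitor induced by hypoxia and glucocorticoids, had 214.5, 155.2 and 148.7 in the I/R libraries, against 130.4, 131.0 and 154.1 in the Sham libraries, with a log2 fold change of 0.30 (SE 0.28). The overlap came from Sham library 3, which lay above I/R library 3.

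Bnip3 and Bnip3l encode mitophagy receptors. Bnip3 had 235.8, 258.1 and 270.9 in the I/R libraries, against 285.2, 146.3 and 264.1 in the Sham libraries, and its log2 fold change was 0.19 (SE 0.29). Bnip3l had 494.5, 745.8 and 853.3 in the I/R libraries, against 661.6, 715.7 and 476.8 in the Sham libraries, and its log2 fold change was 0.16 (SE 0.25). Both overlapped, with Sham library 2 low for Bnip3. Pdk1, which encodes a kinase that holds back the entry of pyruvate into the mitochondrial cycle, had 220.6, 222.2 and 323.1 in the I/R libraries, against 166.2, 270.7 and 278.4 in the Sham libraries, with overlap and a log2 fold change of 0.11 (SE 0.29).

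P4ha1, which encodes a catalytic subunit of collagen prolyl 4-hydroxylase, overlapped between the groups, with 1488, 1361 and 1559 in the I/R libraries, against 1654, 1495 and 1418 in the Sham libraries. Its log2 fold change was -0.050 (SE 0.16). The related P4ha2 had a log2 fold change of -0.28 (SE 0.43), and P4ha1 made up 93.8% to 96.9% of the summed TPM of both in I/R and 92.7% to 96.7% in Sham libraries. Ankrd37, a short HIF target, was listed at 21.3, 0 and 14.8 in the I/R libraries, against 0, 25.9 and 82.5 in the Sham libraries. A library of each group was at 0, where 3 counts would be a value of 1.83 in I/R library 2 and 4.89 in Sham library 1, and the 95% interval of the log2 fold change ran from -4.94 to 3.16. These data set no useful limit on Ankrd37.

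Abundance within the set spanned a wide range. Per exon length Aldoa led with a mean of 449 TPM over the 6 libraries, followed by Hk3 with 399 TPM, Pkm with 389 TPM, Ldha with 358 TPM and Hk2 with 288 TPM. Aldoa had 443 ± 43.7 TPM in I/R and 455 ± 53.4 TPM in Sham libraries, and Pkm had 399 ± 35.8 TPM in I/R and 379 ± 44.1 TPM in Sham libraries (SD, n = 3 each). Hk3 had 342 ± 16.6 TPM in I/R and 456 ± 22.8 TPM in Sham libraries (SD, n = 3 each). With these lengths Aldoa and Pkm overlapped within each group, and Hk3 lay below both in the I/R libraries. In the Sham libraries Hk3 overlapped Aldoa and lay above Pkm. The order rests on the union of annotated exons, which is 5001 bases for Pkm, 3682 for Hk3 and 2911 for Aldoa. Their longest transcripts are 2432, 3219 and 1549 bases, so the place of Hk3 relative to Pkm depends on the length used. Slc16a3 was among the rarest, with 11.3 ± 1.61 TPM in I/R and 5.77 ± 0.292 TPM in Sham libraries. Only P4ha2 with 5.63 TPM and Ankrd37 with 5.01 TPM had lower means over all libraries.

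Spread between libraries was larger in the Sham group for 23 of 35 members, and in the I/R group for 12. The median SD on the log2 scale was 0.25 in I/R and 0.32 in Sham libraries for the members, and 0.30 in I/R and 0.37 in Sham libraries for all genes tested, so a larger Sham spread was general. I/R library 1, the shallowest, held the lowest value of 9 members, 8 of them enzyme genes (Hk2, Hk3, Gpi1, Aldoa, Tpi1, Pgam1, Pkm and Ldha). Sham library 1 held the highest value of 9 members, among them Hk2, Hk3, Ndrg1, Slc16a1, Pfkfb3 and P4ha2, and the lowest of 7. Sham library 3 held the lowest value of 8 members, among them Epas1, Egln1, Egln3 and Ndrg1. The lymphatic marker sum was also lowest in Sham library 3, at 14515.

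Of another 84 genes of glycolysis, gluconeogenesis, pyruvate and glycogen handling, oxygen sensing and HIF response, 75 were tested and 0 passed in limma, with 0 called by edgeR and 0 by DESeq2. The groups did not overlap for 9 of the 75, or 12%, against 9.59% of all genes tested. At an unadjusted limma p under 0.05 were 3 higher, with a background of 2.96%, and 4 lower, with a background of 1.48%. These 7 were 9.33% of the 75, against 4.44% of all genes tested. The count was not stable, with 2 without I/R library 2, 3 without Sham library 3, 4 without the trend and 5 in DESeq2. It was 9 without Sham library 1, where the background was 7.99%. The higher genes included Anxa2, which encodes annexin A2, and Mxi1, a MYC antagonist gene. Mxi1 had 789.7, 759.2 and 741.2 in the I/R libraries, against 588.3, 590.0 and 546.1 in the Sham libraries, without overlap, and the log2 fold change was 0.41, with an SE of 0.17 (limma adjusted p = 0.985). Anxa2 had 2053 ± 56.3 in I/R and 1221 ± 359 in Sham libraries (SD, n = 3 each, limma adjusted p = 0.801).

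The lower genes at an unadjusted p under 0.05, none of which passed, included a glucose kinase gene and a glucose transporter gene. Adpgk, which encodes a kinase that phosphorylates glucose with ADP, had 748.6, 837.7 and 801.1 in the I/R libraries, against 917.4, 1151 and 1165 in the Sham libraries, and the log2 fold change was -0.43, with an SE of 0.18 (limma adjusted p = 0.985). Slc2a6, which encodes the lysosomal glucose transporter GLUT6, had 608.6, 734.2 and 734.2 in the I/R libraries, against 875.1, 924.6 and 932.1 in the Sham libraries, and the log2 fold change was -0.40, with an SE of 0.17 (limma adjusted p = 0.985). In both genes every I/R library lay below every Sham library. G6pc and Pklr, the hepatocyte genes of glucose 6-phosphatase and liver pyruvate kinase, had -1.37 (SE 0.40) and -0.80 (SE 0.33). G6pc had 57.8, 78.5 and 61.5 in the I/R libraries, against 262.4, 98.4 and 192.4 in the Sham libraries. Slc2a2, the gene of the hepatocyte glucose transporter GLUT2, had -0.54 (SE 0.46). Pck1, which encodes an enzyme of gluconeogenesis, had 0.51 (SE 0.49). The groups overlapped for Slc2a2, Pck1 and Pklr.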

How the data were processed

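RNA from sorted cells was sequenced after depletion of ribosomal RNA, per the labels' protocols. The submitters' processing notes name mm10 and, without the role of each, DESeq2 1.22.1, StringTie 1.3.3b, HISAT2 2.1.0 and Trim Galore 0.5.0. The authors divided each library's gene counts by a single factor, and this deposited signal was the starting point. Dividing by the smallest value above 0 gave whole counts for 100% of values (tolerance 0.01). How genes were counted, and whether strand was used, is not given in the sources used here. Annotated genes share exon bases with some members, Slc2a1, Hk1 and Hk3 among them.

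The members, the gene lists and the tests were chosen with earlier results of these data known. The comparison of I/R with Sham used log2(value + 1) of 13434 genes whose mean reached 10. It was a two-sided limma fit (version 3.58.1, R 4.3.3, trended variance) with Benjamini-Hochberg adjustment over those genes, tested on simulated data. edgeR 4.0.16 and DESeq2 1.42.0 on recovered counts were alternatives, beside other pseudocounts, filters and scalings, a block by replicate number and leaving out libraries. TPM used the union of GENCODE M21 exons on GRCm38, found for 21703 genes. Near-identical copies were searched with BLAST 2.17.0. Promoters came from RefSeq. The value in every library is given for members with an unadjusted p under 0.05, without overlap, or in the families compared, and for part of the others. Of the other pathway genes, those with an unadjusted p under 0.05 and 4 hepatocyte genes are named, apart from a few not reported here. With 3 libraries a group, the smallest p of an exact permutation test is 0.1. Counting floors cover counting error only.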

Additional observations from a re-analysis of the deposited data

How the results depend on the processing

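Under every alternative run, 0 members and 0 of the other pathway genes passed. The count among all genes tested, 4 in limma, was 1 with a mean value of at least 50, 0 without the trend, 1 in edgeR, 42 in DESeq2, 0 with the replicate block and 0 without both shallowest libraries, a setting chosen after seeing the data. It was 0 to 22 with single libraries left out. The median of the members was 0.097 with equal totals (0.071 over all genes), 0.13 with quantile normalisation (-0.019 over all genes), 0.096 without both shallowest libraries (0.014 over all genes) and 0.0045 to 0.12 with single libraries left out. The cause was not tested. Overlap of the groups under other scalings was also examined after seeing the data. The labels state no pairing of libraries. Deviations of libraries with the same number had correlations of -0.020, -0.21 and -0.0014, beside -0.13 to 0.18 for different numbers. With 3 libraries a group this check cannot exclude pairing. The replicate block called 0 members.

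Of 43 genes, 22 changed sign under some setting, and Slc16a3, Hk3, Slc2a1, Hk1 and Hk2 did not. With equal totals log2 fold changes were 0.0012 for Gpi1, 0.021 for Pgam1, 0.0038 for Ldha and 0.0047 for P4ha1. With quantile normalisation they were 0.024 for Gpi1, 0.0091 for Aldoa, 0.055 for Ldha, -0.098 for Vhl and 0.0037 for P4ha1. Without both shallowest libraries they were 0.020 for Aldoa, 0.11 for Tpi1, -0.18 for Gapdh, 0.000885 for Pgam1, 0.25 for Ldha, -0.41 for Vhl, -0.035 for Pdk1, 0.000631 for P4ha1 and 0.30 for P4ha2.

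With single libraries left out, the enzyme genes ranged from -0.11 to 0.0051 for Gpi1, -0.31 to 0.051 for Pfkp, -0.17 to 0.066 for Aldoa, -0.25 to 0.12 for Tpi1, -0.24 to 0.30 for Gapdh, -0.26 to 0.22 for Pgam1, -0.042 to 0.14 for Eno1, -0.074 to 0.14 for Pkm, -0.18 to 0.18 for Ldha and -0.00067 to 0.58 for Ldhb. Other members ranged from -0.057 to 0.35 for Pfkfb3, -0.037 to 0.36 for Pfkfb4, -0.014 to 0.33 for Epas1, -0.21 to 0.27 for Egln1, -0.27 to 0.16 for Vhl, -0.11 to 0.37 for Bnip3, -0.017 to 0.39 for Bnip3l, -0.13 to 0.24 for Pdk1, -2.75 to 0.52 for Ankrd37, -0.10 to 0.011 for P4ha1 and -0.60 to 0.11 for P4ha2. Slc2a2 ranged from -1.02 to 0.062.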
